A study of Homo sapiens with 24 samples.

Results

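The transcriptome of PEO4 cells after 6 h with pyridostatin (PDS) was compared with that of untreated PEO4 cells. The comparison takes 3 libraries of treated and 3 of untreated cells, which are 6 of the 24 RNA-seq libraries analysed from the series, and it covers every gene of the deposited count table. PEO4 is an established line of high-grade serous ovarian carcinoma, labelled wild type, whose BRCA2 function was restored by a reversion and which resists cisplatin. Cells of the group labelled PEO4 B were left without treatment or were grown in medium with 5 µM PDS for 2 or 6 h. The labels give the treatment of the untreated group as none and name no vehicle. PEO1 B cells, labelled BRCA2+, are the line from the same patient before resistance, with BRCA2 function regained by a spontaneous reversion, and were treated in the same way. The comparison asks which transcripts change once G4 structures, described next, are stabilised in cells that resist chemotherapy.

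A G-quadruplex (G4) is a fold of DNA in which runs of guanines pair into stacked planes. Such folds occur at many promoters in open chromatin. PDS is a small molecule that binds and stabilises them, and it is known to stall polymerases at such sites.

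Untreated libraries held 18699929 to 21893402 counts on genes, and treated libraries 34119767 to 43713947. The share of ribosomal RNA genes was 0.251% to 0.355% without PDS and 0.0179% to 0.0296% with it, so depth and residual ribosomal RNA moved with treatment. The same split was present in PEO1 BRCA2+ cells, with 0.217% to 0.474% untreated and 0.0164% to 0.0369% after 6 h. A difference in preparation between the untreated and the treated libraries cannot be told apart from treatment, here and in every effect of PDS relative to untreated cells given below. The comparison of 6 h with 2 h takes no untreated library. Thinned to the lowest total, the libraries gave 959 upregulated and 2555 downregulated genes, and without ribosomal RNA genes 1047 and 2774, against 1066 and 2782 with all counts. The labels name no batch. The untreated libraries varied more than the treated ones, with a median coefficient of variation per gene of 7.39% against 3.03% over the 10219 genes with a mean log2 CPM of at least 3. The first principal component of the 6 libraries took 95.6% of the variance. On it the treated libraries lay between 46.6 and 47.5 and the untreated ones at -50.3, -34.6 and -56.2, with untreated replicate 2 the nearest to the treated cells. Nothing in the labels says that replicates came from separate cultures. The paper describes its comparison of PEO4 with PEO1 expression as based on biological replicates, and its PDS data as acquired in triplicate. The p-values measure a spread between libraries that may thus be technical. That spread was estimated over all 18 libraries of 6 conditions, not over these 6 libraries alone. Fitted on these 6 alone, 915 genes were upregulated and 2461 downregulated.

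The markers of ovarian carcinoma were present. PAX8, a transcription factor of the Müllerian lineage, had 226 ± 18.9 CPM (read counts scaled for library size by TMM, mean ± SD, n = 3 here and below) in untreated cells, and WT1, a marker of serous tumours, had 166 ± 8.91 CPM. SOX17 alone among the 20 markers was at 0 counts in the 6 libraries. Of 14 immune markers, PTPRC, CD3E, CD3D, MS4A1 and FCGR3A were at 0 counts, and the 14 summed to between 36.8 and 58.6 CPM in untreated and between 70.9 and 80.3 CPM in treated cells. The 10 fibroblast markers summed to between 42.0 and 52.8 CPM and between 43.0 and 49.3 CPM. The 8 endothelial markers summed to between 14.3 and 44.9 CPM and between 96.3 and 112 CPM, of which TIE1 made up 22.3 ± 16.4 CPM untreated and 101 ± 7.77 CPM after 6 h, while CDH5 and TEK were at 0 counts. Of the tested markers 1 fibroblast, 0 immune and 1 endothelial genes rose and 3, 2 and 3 fell, and the part of other cells in the results was not tested. In a bulk sample, fewer cells of a kind and less RNA per cell cannot be told apart.

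After 6 h of PDS, 2782 genes were downregulated and 1066 were upregulated of 17020 tested, which is 16.3% and 6.26% of them. The counts of called members in each gene list below are to be read beside these shares. A gene was called when its adjusted p (edgeR, quasi-likelihood, Benjamini-Hochberg) was under 0.05 and its absolute log2 fold change was over 1. The falls were the larger changes. Of the downregulated genes 1190 fell by more than 2 on the log2 scale, 538 by more than 3 and 104 by more than 5, whereas 232, 78 and 7 of the upregulated genes rose by as much. The fall had a median of -1.79 and the rise a median of 1.34 on the log2 scale, and over all genes tested the median log2 fold change was -0.03. The values of the treated and untreated libraries did not overlap for 36.3% of genes tested in the upward and 35.9% in the downward direction. Many genes named below were chosen among those without overlap, so its absence in them was set by that choice. Untreated replicate 2 was the untreated library nearest to the treated ones for 65.3% of the upregulated and 53.8% of the downregulated genes. Without it 1250 genes were upregulated and 2879 downregulated. When libraries were scaled by their totals, the median over all genes moved to -0.19 and 698 genes were upregulated and 3334 downregulated, so that changes near a log2 value of 1 depend on the scaling.

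**Figure D1:**
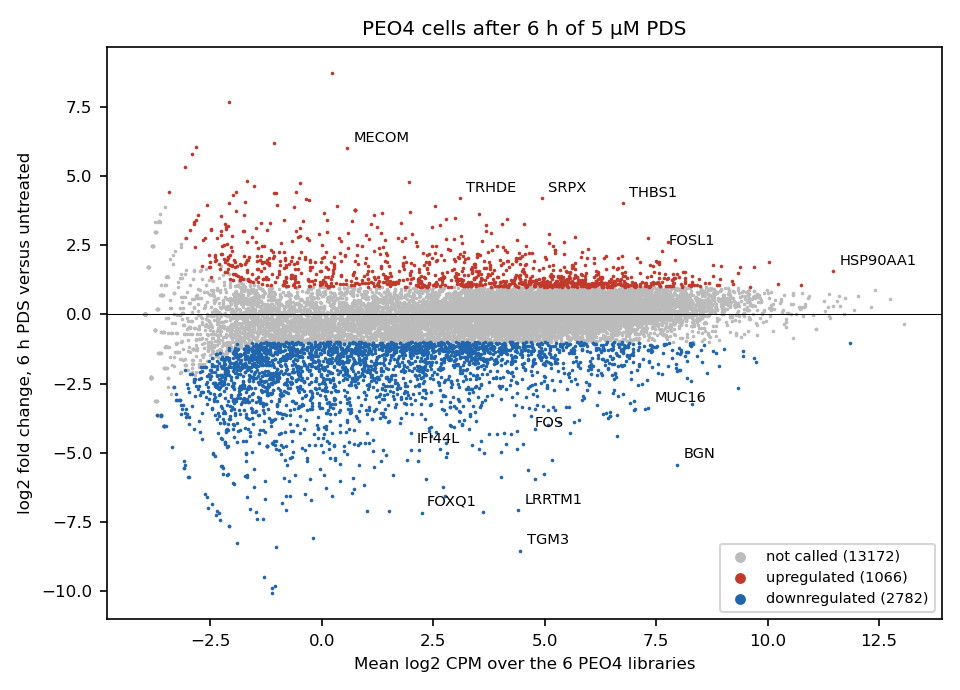
Mean log2 CPM over the 6 libraries (x axis) against the log2 fold change of PEO4 cells after 6 h of PDS relative to untreated cells (y axis), each point a gene. Red and blue points are the 1066 upregulated and 2782 downregulated genes, and grey points were not called. The falls reach further from 0 than the rises at levels above a few CPM.

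Among genes with a mean log2 CPM of at least 3, the largest fall was that of TGM3, which encodes an epidermal transglutaminase that crosslinks proteins of the cornified envelope. The gene lies on chromosome 20 from 2296001 to 2341079 (GRCh38.p14, like all gene positions here). Its levels were 607, 213 and 503 CPM in untreated replicates 1 to 3 and 1.48, 1.099 and 0.898 CPM in the treated ones, a fall of 8.54 on the log2 scale (SE 0.426, adjusted p = 7.8e-10). FOXQ1, a forkhead transcription factor on chromosome 6 from 1312098 to 1314758, had 154, 59.1 and 247 CPM untreated and 0.692, 1.31 and 1.35 CPM treated. LRRTM1, a leucine-rich repeat protein of synapses, had 275, 185 and 275 CPM untreated and 1.76, 1.83 and 1.796 CPM treated. In each of these genes the groups lay far apart, and untreated replicate 2 held the lowest untreated value of all 3. In the annotation LRRTM1 overlaps CTNNA2, and among the genes described next BGN overlaps HAUS7, THBS1 overlaps FSIP1, TRHDE overlaps TRHDE-AS1 and HSP90AA1 overlaps WDR20, so that part of their reads may belong to the other gene. After 2 h of PDS the means of TGM3, FOXQ1 and LRRTM1 were already 1.86, 0.922 and 1.89 CPM. If the fall over the first 2 h had been steady, FOXQ1 would have halved every 16.3 min and LRRTM1 every 17.1 min. Both were by then near their later treated levels, so when within the 2 h they fell is not known. These times are not half-lives, and RNA decay was not measured.

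BGN, the small proteoglycan biglycan of the extracellular matrix, lies on chromosome X from 153494980 to 153509546. It had 1719.5, 1048 and 2298 CPM in untreated and 38.8, 38.6 and 40.1 CPM in treated replicates, a fall of 5.43 on the log2 scale (SE 0.265, adjusted p = 5.4e-10). ABCC3, an exporter of organic anions, had 134, 80.8 and 163 CPM untreated and 2.24, 1.92 and 2.22 CPM treated. UNC5B, a netrin receptor, had 184, 133 and 199 CPM untreated and 3.72, 3.02 and 3.77 CPM treated. In each the groups were far apart, with untreated replicate 2 nearest to the treated libraries. C1QL1, a secreted C1q-like protein, PI3, the elastase inhibitor elafin, APCDD1, a WNT antagonist, and BMP4, a ligand of bone morphogenetic protein signalling, fell by 5.96, 5.78, 5.27 and 5.00.

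The largest rise at this level was that of TRHDE, an ectoenzyme that degrades thyrotropin-releasing hormone, on chromosome 12 from 72087266 to 72670758. It had 1.86, 3.97 and 0.737 CPM in untreated and 40.7, 39.3 and 39.9 CPM in treated replicates, a log2 fold change of 4.22 (SE 0.242, adjusted p = 4.7e-10). SRPX, a sushi-repeat protein, had 5.07, 11.5 and 5.67 CPM untreated and 139, 133 and 132 CPM treated. THBS1, the matricellular protein thrombospondin 1 on chromosome 15 from 39581079 to 39599466, had 23.7, 38.9 and 19.3 CPM untreated and 443, 418 and 475 CPM treated, a log2 fold change of 4.04 (SE 0.206, adjusted p = 5.7e-10). The untreated and treated values of all 3 did not overlap, as their choice required. Untreated replicate 2 was the highest untreated library for each. TNC, the matricellular protein tenascin C, had 2.77, 11.5 and 1.198 CPM untreated and 48.4, 47.3 and 45.6 CPM treated. SLC22A3, an organic cation transporter, had 3.12, 19.8 and 4.15 CPM untreated and 83.9, 84.6 and 83.7 CPM treated. The untreated values of both spread by several times, again with replicate 2 the highest, and stayed below every treated value. GAL (the neuropeptide galanin), TENM2 (a teneurin adhesion receptor), CNTN1 (the adhesion protein contactin 1), ADORA2B (an adenosine receptor) and KCNQ5 (a potassium channel) rose by 3.65, 3.44, 3.26, 3.02 and 2.93 on the log2 scale.

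**Figure D2:**
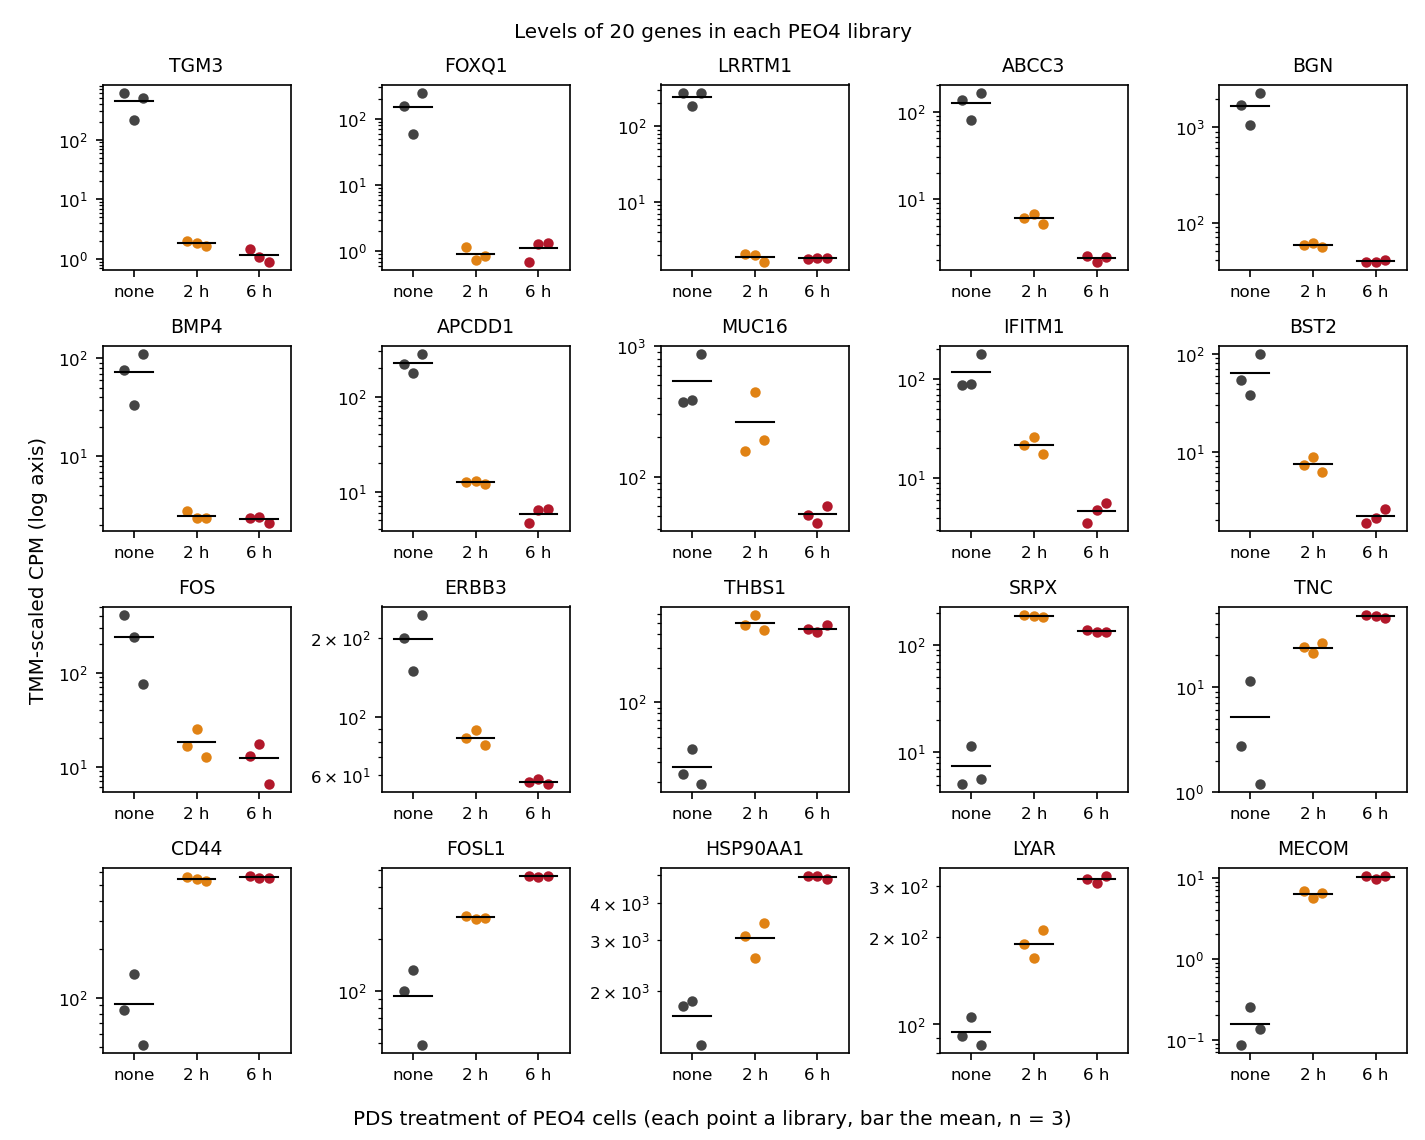
TMM-scaled CPM on a log axis (y axis) of 20 genes in each PEO4 library without PDS and after 2 and 6 h (x axis), each point a library and each bar the mean of 3. For the genes that fell, such as TGM3 and FOXQ1, the treated points lie far below the lowest untreated point, and the untreated points scatter more than the treated ones.

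Most genes of the interferon response fell and none rose. These genes are induced by the factor ISGF3, which binds an element in their promoters after interferon receptors signal. Many of them encode antiviral effectors, and part of the set is also kept on at a low level in tumour cells. Of 45 tested members 34 were downregulated and 0 upregulated, with a median log2 fold change of -1.58. The count of falls was 34, 34 and 31 without untreated replicates 1, 2 and 3, and 35 with library totals. IFITM1, a membrane protein that restricts viral entry, had 87.9, 90 and 180.2 CPM untreated and 3.53, 4.73 and 5.63 CPM treated, a fall of 4.70 on the log2 scale (SE 0.302, adjusted p = 9.1e-09). BST2, the tetherin that holds budding virions, had 53.8, 37.97 and 99.7 CPM untreated and 1.86, 2.07 and 2.604 CPM treated. Neither gene's groups overlapped, and untreated replicate 3 was the highest library for both. IFI44L had 16.7, 14.7 and 34.5 CPM untreated and 0.429, 0.885 and 0.958 CPM treated, a fall of 4.89. The summed level of the list was 3713, 3902 and 5618 CPM in the untreated and 1251, 1447 and 1598 CPM in the treated libraries. ISG15, a ubiquitin-like modifier, fell between 2 and 6 h. It had 418 ± 93.97 CPM untreated, 421 ± 47.1 CPM after 2 h and 171 ± 22.4 CPM after 6 h, and IFIT1, which binds viral RNA, had 158 ± 31.7, 138 ± 14.4 and 60.5 ± 11.1 CPM.

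Promoters of the 5 members that fell most and hold the core of the interferon-stimulated response element are shown because the members moved together. The element was searched as GAAA, any 2 bases and GAAA on both strands in the 250 bases before the transcription start, a motif chosen after the falls were seen. It was present in 19 of the 34 tested members with a RefSeq promoter (GRCh38.p14) and in 14 of the 26 downregulated ones. Over 27305 RefSeq promoters its share was 3.07%. The list holds genes known to be induced through this element, so a share above that of all promoters follows from how the list was chosen. Members that were not downregulated held it as well. Whether it is tied to the fall was not tested. Capitals mark the matches, which may overlap.
IFI44L, chr1:78620259-78620409, plus strand: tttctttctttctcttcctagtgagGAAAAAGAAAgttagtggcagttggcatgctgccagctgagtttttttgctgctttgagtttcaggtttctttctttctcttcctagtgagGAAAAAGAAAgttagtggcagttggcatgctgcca
BST2, chr19:17405720-17405785, minus strand: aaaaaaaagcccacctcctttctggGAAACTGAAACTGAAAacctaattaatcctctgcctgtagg
IFITM1, chr11:313975-314034, plus strand: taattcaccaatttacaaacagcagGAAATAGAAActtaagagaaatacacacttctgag
IFI6, chr1:27672251-27672373, minus strand: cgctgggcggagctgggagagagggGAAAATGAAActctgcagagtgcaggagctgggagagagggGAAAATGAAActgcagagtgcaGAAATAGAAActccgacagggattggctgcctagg
OAS3, chr12:112938306-112938473, plus strand: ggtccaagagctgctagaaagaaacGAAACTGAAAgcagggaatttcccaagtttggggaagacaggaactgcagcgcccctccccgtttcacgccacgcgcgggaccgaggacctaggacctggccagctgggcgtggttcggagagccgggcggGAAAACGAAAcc

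MHC class I genes, which present peptides to T cells and are partly driven by interferon, changed less. Of 16 tested members 4 were downregulated and 0 upregulated (median log2 fold change -0.68). HLA-B fell by 1.04 from 316 ± 56.9 CPM and HLA-F by 2.22 from 3.58 ± 1.18 CPM. B2M, the shared light chain, with 148 ± 24.8 CPM untreated and 77.2 ± 6.87 CPM treated, did not pass the fold threshold. Reads can be split among the near-identical HLA genes, so these values are uncertain. The fall of HLA-B was not called without untreated replicate 3 or without treated replicate 1.

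Most genes of the cornified envelope and of epidermal differentiation fell and none rose. They encode precursor proteins, crosslinking enzymes and proteases of stratified epithelium and lie in part in a cluster on chromosome 1. Of 30 tested members 23 were downregulated and 0 upregulated, with a median log2 fold change of -2.74, and the count was 24 without untreated replicate 2. TGM1, a membrane-bound transglutaminase, had 403, 287 and 357 CPM in untreated and 26.3, 27.8 and 30.3 CPM in treated replicates, a fall of 3.63 on the log2 scale (SE 0.106, adjusted p = 8.2e-16). CRCT1, a cysteine-rich protein of the same gene cluster, had 55.3, 9.29 and 35.7 CPM untreated and 0.215, 0.214 and 0.299 CPM treated. SPRR3, a small proline-rich envelope precursor, had 8.88, 1.16 and 3.46 CPM untreated and 0.0238, 0 and 0 CPM treated. The groups of these genes did not overlap, and for SPRR3 the treated values rest on at most 1 count per library. Involucrin, IVL, had 22.1 ± 8.17 CPM untreated and 12.5 ± 1.24 CPM treated and was not called.

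Promoters of the 3 downregulated members with the largest falls that hold both a TATA box, searched as TATAAA, and an AP-1 site, searched as TGANTCA, are shown for the same reason. In the 250 bases before the start, TATAAA was present in 8 and TGANTCA in 7 of the 24 tested members with a promoter, and in 11.1% and 6.6% of all RefSeq promoters. Of the 18 downregulated ones 6 held TATAAA and 5 held TGANTCA. Capitals mark the matches on either strand.
SPRR3, chr1:153001554-153001748, plus strand: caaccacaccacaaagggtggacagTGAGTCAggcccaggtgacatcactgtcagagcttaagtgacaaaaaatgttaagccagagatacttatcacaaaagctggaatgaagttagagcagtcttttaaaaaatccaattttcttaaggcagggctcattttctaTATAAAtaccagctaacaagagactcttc
FLG, chr1:152325240-152325343, minus strand: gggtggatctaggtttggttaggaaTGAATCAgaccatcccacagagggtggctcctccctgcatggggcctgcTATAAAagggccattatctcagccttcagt
SPRR2G, chr1:153150891-153151095, minus strand: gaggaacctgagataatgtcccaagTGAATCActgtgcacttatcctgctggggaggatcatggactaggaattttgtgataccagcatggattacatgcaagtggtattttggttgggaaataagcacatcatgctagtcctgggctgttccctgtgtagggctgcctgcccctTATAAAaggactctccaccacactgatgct

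Keratins form the intermediate filaments of epithelia. Of 24 tested members 11 fell and 3 rose (median -0.77). KRT5, of basal cells, had 243, 101 and 179 CPM untreated and 17.8, 21.4 and 24.9 CPM treated, a fall of 3.04, and KRT13, of stratified mucosa, fell by 5.16 from 44.6 ± 27.7 CPM. The simple epithelial keratins KRT8, KRT18 and KRT7 had log2 fold changes of -0.15, 0.01 and 0.69 and were not called. Without untreated replicate 1 the count of falls was 7. The cell junction genes were mostly below the threshold, with 5 of 35 down (14.3%) and 1 up (2.86%). Over all genes tested 16.3% fell and 6.26% rose. CDH3, P-cadherin, rose by 2.21 from 9.99 ± 1.92 to 46.01 ± 0.907 CPM, whereas CDH1, E-cadherin, with 134 ± 17.7 CPM untreated and 100.02 ± 0.368 CPM treated, was not called. TJP3, a tight junction scaffold, fell by 3.33.

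Among the ovarian carcinoma markers 4 of 17 tested fell and 2 rose. MUC16, which carries the CA125 antigen, had 375, 388 and 871 CPM untreated and 50.9, 44.3 and 59.7 CPM treated, a fall of 3.40 on the log2 scale (SE 0.491, adjusted p = 3.6e-05). MSLN, mesothelin, a surface binding partner of MUC16, had 666, 546 and 741 CPM untreated and 121, 134 and 145 CPM treated. FOLR1, the folate receptor, fell by 4.87 from 33.7 ± 9.04 to 1.16 ± 0.144 CPM. In none of the 3 did the groups overlap. MECOM, a zinc-finger transcription factor, rose from 0.0866, 0.251 and 0.138 CPM to 10.5, 9.64 and 10.5 CPM, a log2 fold change of 6.01 (SE 0.2497, adjusted p = 4.1e-16). PAX8 and WT1, with 157 ± 6.18 and 121 ± 3.71 CPM after 6 h, changed by -0.52 and -0.46 and did not pass the fold threshold.

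Extracellular matrix genes moved in both directions. Of 29 tested collagen genes 18 were downregulated and 2 upregulated, with a median of -1.57. COL5A2, a fibrillar collagen chain, had 54.2, 15.97 and 54.7 CPM untreated and 1.14, 1.37 and 1.41 CPM treated, a fall of 5.00 (SE 0.418, adjusted p = 1.3e-07). COL17A1, a transmembrane collagen of hemidesmosomes, fell by 3.88 from 10.4 ± 2.09 CPM, and COL1A1, a chain of type I collagen, by 2.99 from 22.1 ± 7.52 CPM. Of 35 integrin and laminin genes 10 fell and 10 rose. ITGB6, an epithelial integrin subunit, had 10.5, 32.4 and 5.21 CPM untreated and 94.8, 97.4 and 94.98 CPM treated, a log2 fold change of 2.60 (SE 0.388, adjusted p = 4.8e-05), and ITGA5, of the fibronectin receptor, rose by 2.03 to 43.7 ± 2.897 CPM. Of 26 regulators and markers of the epithelial to mesenchymal transition 7 rose and 4 fell (median 0.54), and 10 rose without untreated replicate 2. CD44, a hyaluronan receptor on chromosome 11 from 35139171 to 35232402, had 83.9, 140.1 and 51.3 CPM untreated and 568, 549.8 and 551 CPM treated, a log2 fold change of 2.60 (SE 0.245, adjusted p = 5.3e-07). VIM, vimentin, had 8.36, 27.7 and 3.18 CPM untreated and 42.7, 53.8 and 63.1 CPM treated, with the treated values below the 129 ± 22.7 CPM at 2 h. Its rise was not called when the groups compared were fitted alone. The inducers SNAI2 and ZEB1 had 0.472 ± 0.185 and 0.732 ± 0.268 CPM untreated and 0.431 ± 0.0632 and 1.02 ± 0.176 CPM treated, and neither was called.

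Genes of developmental signalling pathways were among those that fell. Of 30 tested WNT ligands and receptors 14 fell and 3 rose (median -0.84), and of 19 WNT feedback genes and targets 7 fell and 0 rose (median -0.61). WNT10A had 147, 134 and 145 CPM untreated and 13, 14.95 and 13.9 CPM treated, a fall of 3.35 (SE 0.08795, adjusted p = 3.1e-19), and WNT6 fell by 4.31 from 68.6 ± 18 CPM. AXIN2, a target and inhibitor of the pathway, had 29.96, 10.9 and 37.7 CPM untreated and 1.55, 1.07 and 1.11 CPM treated. NOTUM, a deacylase of WNT ligands, had 4.3 ± 3.63 CPM untreated and 0 counts in each treated library, so that it was at least 51.0-fold lower when 3 counts per library are taken as the floor. RNF43, a ligase that removes WNT receptors, changed by -0.61 and was not called. In TGF-beta and BMP signalling 17 of 43 fell and 5 rose (median -0.44). BMP4 had 76.1, 33.1 and 111 CPM untreated and 2.36, 2.41 and 2.095 CPM treated, and BMP7, another ligand, had 178, 87.2 and 212 CPM untreated and 11.4, 10.3 and 10.2 CPM treated. BAMBI, a decoy receptor, fell by 3.35, the inhibitory SMAD7 by 1.27, and ID1, a direct target of BMP signals, by 1.35.

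In the Notch pathway 7 of 20 genes fell and 2 rose (median -0.83). The receptors NOTCH1 and NOTCH3 fell by 1.18 and 1.94, from 40.3 ± 12.98 and 109.7 ± 31.4 CPM, and the target HES1 by 1.19, while the ligand JAG1 rose by 1.56. The call of NOTCH1 was lost without untreated replicate 3, and that of HES1 without untreated replicate 2. Axon guidance genes, which direct neurites and also cell migration, had 26 of 57 members down and 4 up (median -0.91). PLXNA4, a semaphorin receptor, had 113, 88.7 and 137 CPM untreated and 3.32, 3.78 and 4.43 CPM treated, a fall of 4.88 (SE 0.152, adjusted p = 2.5e-15). NRP1, a co-receptor of semaphorins and VEGF, rose from 0.823, 2.81 and 0.276 CPM to 13.1, 12.4 and 11.4 CPM. Of 38 calcium channels, pumps and their regulators 11 fell and 2 rose, with the neuronal channel CACNA1B down by 6.55 from 3.85 ± 1.79 CPM.

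Of 17 EGF receptors and ligands 4 fell and 0 rose, with a median of 0.25, against the 16.3% of all genes tested that fell. ERBB3, a receptor that signals through its partners, had 200.5, 149 and 245 CPM untreated and 56.3, 57.9 and 55.5 CPM treated, a fall of 1.81 (SE 0.149, adjusted p = 5.7e-08). ERBB2 fell by 1.34 from 268 ± 21.5 CPM and ERBB4 by 4.91 from 23.8 ± 2.57 CPM, whereas EGFR, with 101 ± 23.7 CPM untreated and 153 ± 6.79 CPM treated, was not called. Among 11 AP-1 factors 5 fell and 2 rose. FOS had 412, 238 and 75.8 CPM untreated and 13.1, 17.6 and 6.53 CPM treated, a fall of 4.28 (SE 0.602, adjusted p = 2.8e-05). FOSL1, another partner of JUN, moved the other way, with 100.3, 131 and 48.8 CPM untreated and 460.3, 456 and 458 CPM treated, a log2 fold change of 2.30 (SE 0.2599, adjusted p = 3.5e-06). JUN, with 418 ± 176 CPM untreated and 215 ± 6.51 CPM treated, was just under the fold threshold, and it was called downregulated with library totals, with upper-quartile scaling, with the stricter filter on counts and without untreated replicate 3.

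Of 32 immediate early genes 9 fell and 2 rose (median -0.57). EGR1 had 704, 537 and 301 CPM untreated and 48.9, 56.4 and 39.8 CPM treated, a fall of 3.41 (SE 0.343, adjusted p = 1.1e-06). NR4A1, a nuclear receptor, had 159.6 ± 76.03 CPM untreated, 118 ± 38.3 CPM at 2 h and 27.6 ± 1.53 CPM at 6 h. Of 15 feedback genes of MAPK signalling 4 fell and 1 rose, with the phosphatase DUSP1 down by 2.89 and DUSP4 up by 2.27. Of 31 factors and targets of YAP and TEAD 6 fell (19.4%) and 3 rose (9.68%), against 16.3% and 6.26% of all genes tested. The classical targets CCN1 and CCN2 had 147 ± 45.5 and 88.5 ± 41.3 CPM untreated, 760.01 ± 57.2 and 606 ± 50.3 CPM at 2 h, and 234 ± 12.4 and 65.1 ± 4.41 CPM at 6 h, when neither was called.

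Heat shock chaperones rose in part. They fold new and damaged proteins, and their genes are induced by the factor HSF1, which binds repeats of GAA in alternating direction. Of 26 tested members 11 rose and 3 fell, with a median of 0.91. With library totals 6 rose, and without untreated replicate 3 8 rose. HSP90AA1, the inducible form of the chaperone HSP90, on chromosome 14 from 102080742 to 102139749, had 1781, 1855 and 1310.4 CPM untreated and 4950.1, 4955 and 4834 CPM treated, a log2 fold change of 1.58 (SE 0.121, adjusted p = 4.4e-09). HSPA8, the constitutive HSP70, had 1245, 1214 and 1107 CPM untreated and 2428, 2499 and 2494 CPM treated, and its rise of 1.06 was not called with library totals, upper-quartile scaling or the stricter filter. The small heat shock proteins CRYAB and HSPB8 fell by 3.55 and 1.63. HSPA1A, an inducible HSP70, fell by 3.77, from 0.565 ± 0.209 CPM untreated to 0.0399 ± 0.0691 CPM treated, but it shares reads with its near-identical copy HSPA1B and its value is uncertain.

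Promoters of the 3 upregulated members that hold the heat shock element are shown as the sequences of genes that rose together. The element was searched as GAA, any 2 bases, TTC, any 2 bases and GAA on both strands in the same 250 bases. It was present in 4 of the 23 tested members with a promoter, in 3 of the 11 upregulated ones, and in 0.439% of RefSeq promoters. A share above that of all promoters follows in part from the choice of a list of genes induced through this element. Whether it is tied to the rise was not tested. Capitals mark the matches, which overlap in CHORDC1.
CHORDC1, chr11:90223062-90223134, minus strand: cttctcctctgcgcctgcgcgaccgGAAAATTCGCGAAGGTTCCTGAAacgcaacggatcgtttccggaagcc
HSPA6, chr1:161524441-161524503, plus strand: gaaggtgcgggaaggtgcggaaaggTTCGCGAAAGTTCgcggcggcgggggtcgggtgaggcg
HSPA8, chr11:123062154-123062386, minus strand: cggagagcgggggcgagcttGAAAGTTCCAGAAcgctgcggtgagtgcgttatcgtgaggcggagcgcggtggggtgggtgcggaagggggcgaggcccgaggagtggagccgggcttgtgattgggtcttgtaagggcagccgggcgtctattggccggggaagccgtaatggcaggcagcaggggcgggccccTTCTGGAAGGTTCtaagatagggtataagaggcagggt

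Other stress programmes held fewer rises. Of 31 genes of the integrated stress and unfolded protein responses 4 fell and 0 rose (median -0.08). ATF4 and its target DDIT3 had 289.98 ± 13.9 and 23.5 ± 4.02 CPM untreated and 293 ± 7.94 and 25.2 ± 0.0697 CPM treated. CEBPB, a factor that ATF4 works with, fell by 2.03 from 503 ± 12.1 to 123 ± 9.04 CPM. Of 29 p53 targets 1 rose and 2 fell (median 0.08, and -0.08 with library totals). CDKN1A, the p21 inhibitor of the cell cycle, had 25.6 ± 4.84 CPM untreated and 16.6 ± 0.868 CPM treated, and MDM2 had 56.8 ± 5.48 and 59.99 ± 2.38 CPM. Neither was called. Of 44 genes of homologous recombination and the Fanconi anemia pathway, 0 rose and 0 fell in edgeR's test past the fold threshold. Their log2 fold changes ran from -0.80 to 0.86. BRCA1 had 69.8 ± 2.101 CPM untreated and 66.2 ± 1.34 CPM treated. At an adjusted p under 0.05 with no fold threshold, 18 of the 44 were higher and 12 lower, and 31 had an unadjusted p under 0.05. DESeq2 called 0 of them past both thresholds.

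Among the genes for making ribosomes some rose and none fell. Of 54 tested genes of ribosome biogenesis and RNA polymerase I 15 were upregulated and 0 downregulated, with a median of 0.82, and 6 were upregulated with library totals and 19 without untreated replicate 2. LYAR, a nucleolar processing factor, had 91.1, 106 and 85.04 CPM untreated and 315, 308 and 324 CPM treated, a log2 fold change of 1.75 (SE 0.0859, adjusted p = 9.1e-14). FBL, the methyltransferase fibrillarin, had 155, 160.3 and 151 CPM untreated and 374, 371 and 406 CPM treated. POLR3G, a subunit of RNA polymerase III, rose by 2.18 to 50.1 ± 0.811 CPM. The groups of these 3 genes did not overlap. Nucleolin, NCL, which also binds G4s, had 1336 ± 54.4 CPM untreated and 2281 ± 89.4 CPM treated and was under the fold threshold. Of 78 ribosomal protein genes 5 rose and 0 fell (median 0.54), among them RPL38 by 1.45 and RPS29 by 1.29. These 5 are 6.41% of the list, near the 6.26% of all genes tested that rose. Of 73 nuclear genes of oxidative phosphorylation 3 rose (4.11%) and 0 fell (median 0.57). At an adjusted p under 0.05 with no fold threshold, 71 of the ribosomal protein genes were higher and 3 lower. Of the oxidative phosphorylation genes 63 were higher and 4 lower, against 34.6% and 35.2% of all genes tested. These shifts were small, and with library totals the 2 medians were 0.38 and 0.41. Without untreated replicate 2, 9 of the oxidative phosphorylation genes rose past the fold threshold.

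**Figure D3:**
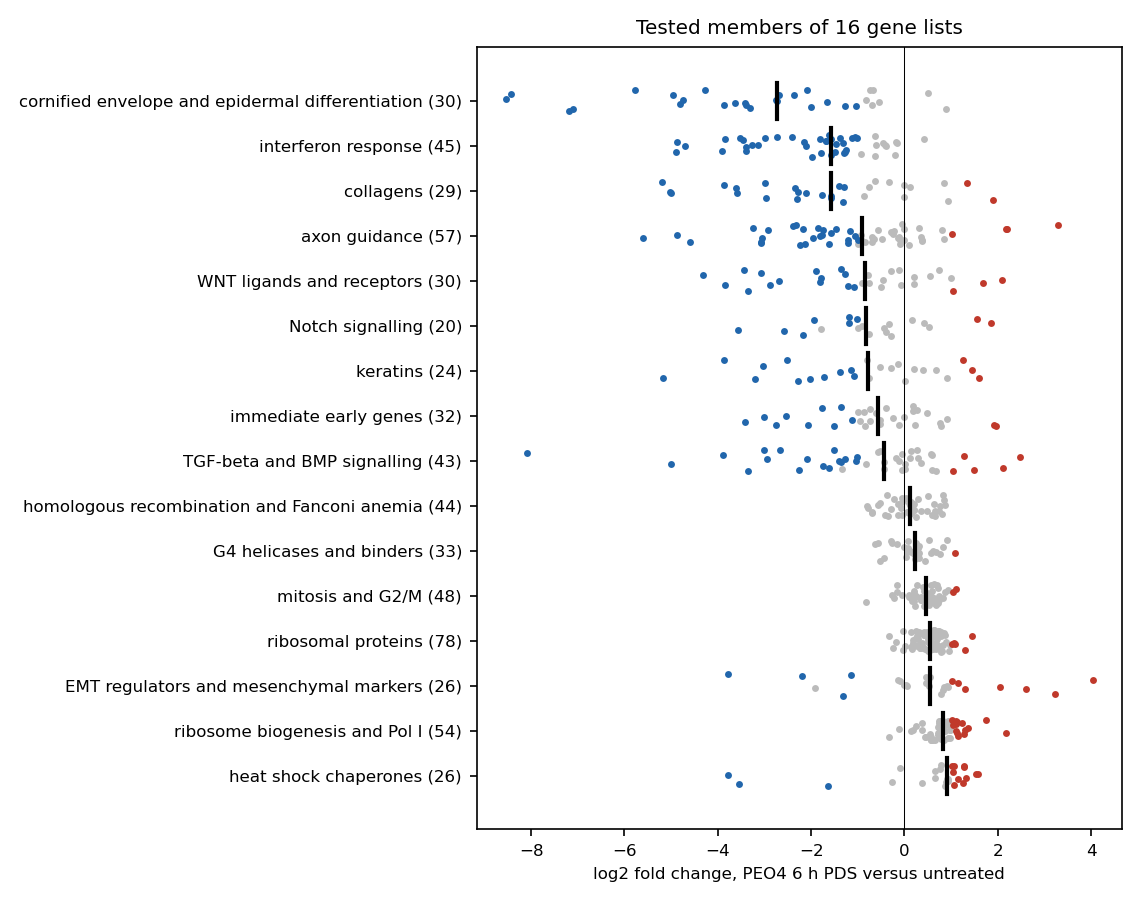
The log2 fold change after 6 h of PDS in PEO4 (x axis) of the tested members of 16 gene lists (y axis, number tested in parentheses), each point a gene, red upregulated, blue downregulated, grey not called, with a black bar at the median. The cornified envelope, interferon and collagen lists lie mostly below 0, and the ribosome biogenesis and heat shock lists lie mostly above it.

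Few cell cycle genes were called. Of 48 DNA replication genes 1 rose and 1 fell (median 0.39), and of 48 mitotic genes 2 rose and 0 fell (median 0.47). At an adjusted p under 0.05 with no fold threshold, 31 replication genes were higher and 5 lower. For the mitotic genes these counts were 40 and 4, against 34.6% higher and 35.2% lower over all genes tested. MKI67, a marker of dividing cells, had 213 ± 30.8 CPM untreated and 285 ± 8.41 CPM treated, and PLK1, a mitotic kinase, had 159.8 ± 27.1 and 247 ± 3.29 CPM. E2F2, a factor of the G1 to S transition, fell by 2.85 from 13.4 ± 2.79 to 1.87 ± 0.151 CPM. CLSPN, CDC25A and CKS2 rose by 1.06, 1.10 and 1.05, and none of these rises was called with library totals or upper-quartile scaling. Of 39 replication-dependent histone genes 8 rose and 9 fell. Their transcripts mostly lack poly(A) tails, the library captured poly(A) RNA, and the genes are near-identical copies, so these values are uncertain.

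Helicases and other proteins that bind or unwind G4s were nearly all under the threshold, with 1 of 33 up and 0 down (median 0.23). DHX36, which unwinds G4s in DNA and RNA, had 52.8 ± 5.49 CPM untreated and 80.5 ± 3.505 CPM treated, and BLM had 19.7 ± 2.105 and 24.2 ± 1.07 CPM. The gene called in this list was NPM1, which rose by 1.09, and not with library totals or upper-quartile scaling. Of 31 genes whose promoters are known to hold G4s 1 rose and 6 fell (median 0.14, and -0.02 with library totals). That is 3.23% and 19.4%, against 6.26% and 16.3% of all genes tested. VEGFA, the vascular growth factor, had 248, 184 and 259.6 CPM untreated and 66.6, 68.5 and 75.2 CPM treated, a fall of 1.72 (SE 0.0866, adjusted p = 1.9e-13). RET, a receptor tyrosine kinase, fell from 2.28 ± 0.561 to 0.139 ± 0.0468 CPM. Promoter sequences were found for 73.7% of the upregulated and 65.6% of the downregulated genes, under the 80% that a comparison of G4 motifs between them would need, so that check was void. The interferon motif, with promoters for 34 of 45 tested members, fell short of that coverage too. So did the cornified envelope motifs, with promoters for 18 of 23 downregulated members. Those motif shares describe only the members with a promoter.

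Transcription factor families and transport genes changed in part. Of 35 forkhead genes 11 fell and 2 rose (median -0.70), and of 21 KLF and SP factors 6 fell and 1 rose. KLF6 had 117, 117 and 65.6 CPM untreated and 378, 370.4 and 378 CPM treated, a log2 fold change of 1.91 (SE 0.165, adjusted p = 1.3e-07). Of 24 HOX genes 2 rose and 1 fell. Of 30 ABC transporters 8 fell and 6 rose. ABCB1, the P-glycoprotein that exports many drugs, had 0.234 ± 0.132 CPM untreated and 0.359 ± 0.0269 CPM treated and was not called, and ABCC2, which exports conjugates of cisplatin, rose by 1.51 at the low level of 1.102 ± 0.0929 CPM. SLC31A1, the copper transporter through which cisplatin can enter, had 32.6 ± 0.902 CPM untreated and 28.3 ± 0.589 CPM treated. Of 34 antioxidant and glutathione genes 4 rose and 5 fell, with GPX3, a secreted glutathione peroxidase, at 237, 143 and 267 CPM untreated and 42.1, 42.3 and 43.1 CPM treated, a fall of 2.34. Of 7 metallothionein genes 1 rose, MT1E by 1.41, and 0 fell, with reads possibly shared among these copies.

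The estrogen receptor ESR1 fell by 1.14 from 223 ± 2.81 to 101 ± 2.39 CPM, and of 19 genes of this receptor and its targets 5 fell and 0 rose. Of 36 hypoxia and glycolysis genes 8 fell and 0 rose, with EPAS1 down by 2.25 and the glucose transporter SLC2A3 by 3.87, whereas SLC2A1 and LDHA, with 413 ± 4.802 and 1732 ± 10.5 CPM treated, were not called. Of 35 cytokine and feedback genes of NF-kB 5 rose and 5 fell, or 14.3% each. Over all genes tested 6.26% rose and 16.3% fell. CXCL8, a chemokine for neutrophils, rose from 0.649, 1.21 and 0.276 CPM to 7.298, 5.98 and 7.005 CPM. Cholesterol synthesis and uptake had 2 of 31 up (6.45%) and 5 down (16.1%). Fatty acid synthesis had 2 of 22 up (9.09%) and 3 down (13.6%). Both lay near the 6.26% and 16.3% of all genes tested. FASN, the fatty acid synthase, had 1459 ± 211 CPM untreated and 1475 ± 56.4 CPM treated. DEPTOR, an inhibitor of mTOR, stood at 10.8 ± 0.184 CPM, a log2 fold change of 2.24, in a list of 24 mTOR genes with 1 up and 2 down. Circadian clock genes had 3 of 22 down and 1 up. The lists of Pol II elongation factors (1 up and 0 down of 32), autophagy and lysosome genes (1 and 0 of 31) and snoRNA host genes (1 and 0 of 26) held almost no called genes. Of 29 splicing factors none was called by edgeR or by DESeq2, and 27 of them had an unadjusted p under 0.05 in edgeR with no fold threshold. The single Pol II factor that rose was ELL2, by 1.81.

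The response of PEO4 was compared with that of PEO1 BRCA2+ cells at 6 h, which shares no library with it. In PEO1 BRCA2+ cells 220 genes rose and 1163 fell (1.29% and 6.83% of genes tested, 8.13% together). Of the 1066 genes upregulated in PEO4, 91 were also upregulated in PEO1 BRCA2+, which is 8.54% of the former and 41.4% of the latter, and 41 were downregulated there. Of the 2782 downregulated in PEO4, 607 were also downregulated in PEO1 BRCA2+, which is 21.8% of the former and 52.2% of the latter, and 31 were upregulated. The test of the difference itself called 923 genes with a higher and 1589 with a lower response in PEO4 (5.42% and 9.34%). Of the interferon genes 31 of 45 had a lower response in PEO4 and 0 a higher one, and their median response was 0.09 in PEO1 BRCA2+ cells. IFITM1, at a far lower level in this line than in PEO4, had 0.288, 0.454 and 0.2195 CPM in untreated and 0.3797, 0.697 and 0.382 CPM in treated PEO1 BRCA2+ replicates, and the difference of the responses was -5.27 on the log2 scale (SE 1.09, adjusted p = 0.0015). For the cornified envelope list 18 of 30 responded lower in PEO4, with a median response of -0.24 in PEO1 BRCA2+. Heat shock chaperones had a median of 0.38 and ribosome biogenesis genes of 0.48 there, and the difference was called upward for 3 and 2 of their members and downward for 2 and 0. The ribosomal protein genes had a median response of 0.58 in PEO1 BRCA2+ cells. FOS and EGR1, whose falls were also seen in PEO1 BRCA2+ cells with log2 fold changes of -2.36 and -4.01, had no called difference.

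**Figure D4:**
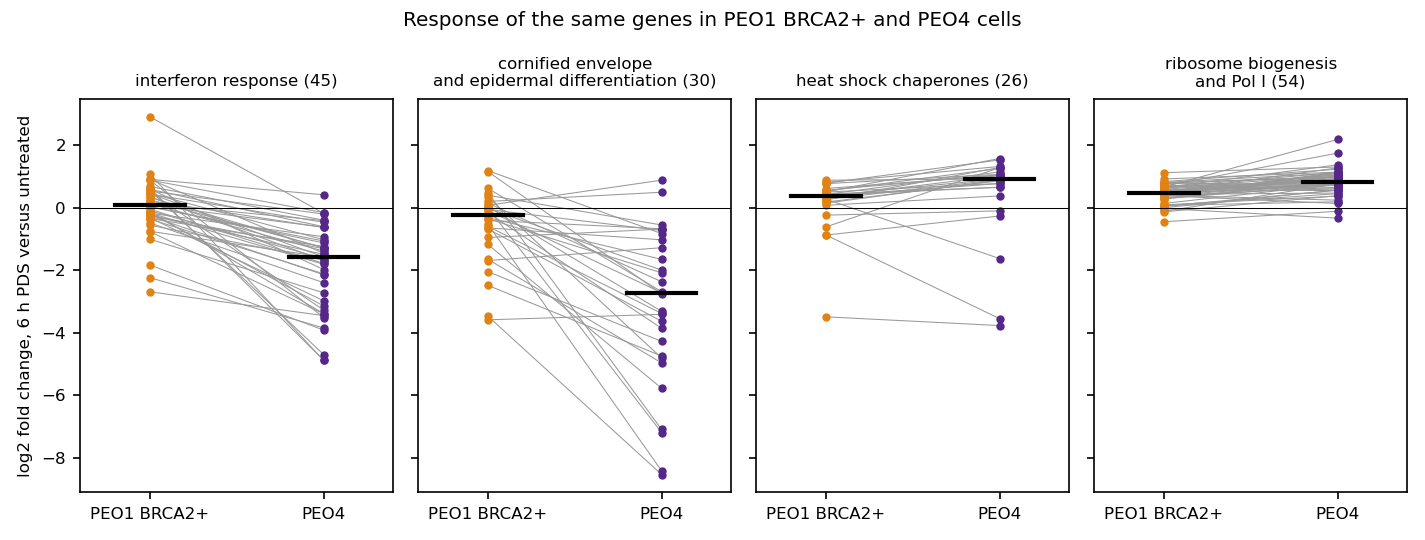
The log2 fold change after 6 h of PDS (y axis) of each tested member of 4 gene lists in PEO1 BRCA2+ cells (orange) and PEO4 cells (purple), joined by a grey line, with black bars at the medians. The interferon genes lie around 0 in PEO1 BRCA2+ and mostly below 0 in PEO4, and the ribosome biogenesis genes lie mostly above 0 in both.

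Several single genes had large differences of response. HIPK2, a kinase of stress signalling, had 16.2, 24.1 and 18.8 CPM in untreated and 144, 132 and 130.3 CPM in treated PEO4 replicates, against 159.9, 159.7 and 181 and 69.6, 66.3 and 91.9 CPM in PEO1 BRCA2+ replicates. KRT13 had 5.56, 6.78 and 6.85 CPM in untreated and 11.2, 11.1 and 8.07 CPM in treated PEO1 BRCA2+ replicates, where it was not called. LGR6, a receptor for R-spondins, had 94.4, 50.2 and 132 CPM in untreated and 3.27, 3.57 and 3.89 CPM in treated PEO4 replicates, and 14.9, 15.04 and 11.99 and 13.2, 14.2 and 11.6 CPM in PEO1 BRCA2+ replicates.

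PEO4 cells at 6 h were also compared with PEO4 cells at 2 h. Between the 2 times 387 genes rose and 1652 fell (2.27% and 9.71% of genes tested). Against the same untreated libraries, 1089 genes were upregulated (6.4%) and 1870 downregulated (11%) at 2 h. The interferon response was among the lists that went on falling, with 24 of 45 members lower at 6 h than at 2 h. Cornified envelope genes had 8 of 30 members lower, and WNT ligands and receptors 2 of 30. MUC16 had 158, 442 and 189.6 CPM at 2 h, of which replicate 2 lay within the untreated range, and fell by 2.35 from 2 to 6 h (SE 0.473, adjusted p = 8.4e-04). FOSL1 had 272, 259 and 264 CPM at 2 h, above every untreated and below every 6 h value. MECOM had 6.83, 5.58 and 6.53 CPM at 2 h.

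The untreated PEO4 A libraries come from the same line. Per the labels they were made with a directional poly(A) kit, and the kit of the PEO4 B libraries is not given in the sources used here. According to the methods, sodium pyruvate was added to the medium of PEO1 cells that lack BRCA2 and of the PEO4 cells grown alongside. The PEO4 A table was normalized separately and gives only a rough position. Of the upregulated genes 76.5% and of the downregulated genes 67.6% lay closer in PEO4 A to the untreated than to the treated PEO4 B level on the log2 scale, with 0.5 CPM added. THBS1 had 9.398 ± 0.572 CPM and BGN 3522 ± 249.8 CPM in PEO4 A, both closer to the untreated PEO4 B level. TGM3, the largest fall in PEO4 B, had 11.2 ± 4.12 CPM in PEO4 A and lay closer to the treated PEO4 B level. The median span was 29.7 kb for upregulated, 23.4 kb for downregulated and 26.6 kb for all tested genes with a RefSeq position. The median level in PEO4 A was 6.39 CPM for upregulated, 3.2 CPM for downregulated and 15.6 CPM for all tested genes. Among genes at 100 CPM or more there, 3.61% were upregulated and 8.9% downregulated, and among those between 1 and 3 CPM 7.31% and 29.6%.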

How the data were processed

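Poly(A) RNA of PEO4 and PEO1 cells was sequenced by the authors as paired-end reads. According to their processing notes, the authors used FastQC, fastp, STAR and featureCounts with the hg38 build and deposited raw read counts for each gene. The annotation, the strand setting and the tool versions are not given in the sources used here, so overlapping, antisense and near-identical genes are uncertain. Each table lists 28277 genes by symbol. Lines that held no counts were left out, 1 from the main table and 2 from that of the PEO4 A libraries.

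Tests used edgeR 4.0.16 (R 4.3.3) after filterByExpr (minimum count 10, minimum total 15) and TMM scaling. The quasi-likelihood fit was robust and took 18 libraries, each of 6 conditions having its own mean, which left 12 residual degrees of freedom. Calls needed a Benjamini-Hochberg adjusted p under 0.05 over 17020 genes and an absolute log2 fold change over 1. CPM are scaled by TMM. Where a group had 0 counts in each library, the fold is a bound at 3 counts per library. Library totals lay between 18699929 and 21893402 counts for untreated and between 34119767 and 43713947 for treated PEO4, and no pair of replicates matched within sampling noise. The script was tested on simulated counts in which 200 genes were changed, as many up as down. It recovered 199 of them and made 1 false call. The simulation gave every condition the same spread and changed few genes. It therefore does not show how the calls hold under the unequal spread and the many falls of these data.

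Members and gene lists were chosen with earlier results of these data known. The text names the 10 genes with the largest change in each direction whose groups did not overlap and whose log2 CPM averaged 3 or more (pseudogenes, microRNA, snoRNA and LOC genes passed over), the 5 genes with the largest difference of response in each direction at the same level over 18 libraries and with the same exceptions, and in each list fixed anchor genes with up to 4 called members without overlap that changed most. FLG, SPRR2G, IFI6, OAS3, CHORDC1 and HSPA6 are named outside this rule, for their promoters, chosen after their values were seen. Some genes that the rule names are not reported here. Alternatives were other scalings, filters, thresholds and tests, DESeq2 1.42.0, a replicate term and left-out libraries. A fit with limma 3.58.1 voom was added after the data were seen.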

Additional observations from a re-analysis of the deposited data

Results flagged for a closer look

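The response to 6 h of PDS differed between PEO4 and PEO1 BRCA2+ cells by edgeR's test of the difference of responses, which called 923 genes higher and 1589 lower in PEO4. Among genes with a mean log2 CPM of at least 3 over the 18 libraries, the largest differences upward (log2 scale, Benjamini-Hochberg adjusted p) were those of TRHDE, at 4.44 (adjusted p = 3.7e-08), HIPK2, at 3.92 (1.7e-09), SRPX, at 3.83 (1.0e-07), TENM2, at 3.56 (1.9e-06), and MARCHF4, a membrane-bound ubiquitin ligase, at 3.51 (3.6e-08). The largest downward were those of FOXQ1, at -7.66 (1.5e-06), KRT13, at -5.83 (4.9e-05), ABCC3, at -5.40 (1.7e-08), PI3, at -4.60 (1.3e-05), and LGR6, at -4.59 (1.2e-06). In PEO1 BRCA2+ cells the log2 fold changes of these 5 were 0.52, 0.66, -0.48, -1.18 and -0.10.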

How the results depend on the processing

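For the comparison of 6 h of PDS with untreated PEO4 cells, the counts of 1066 upregulated and 2782 downregulated genes stayed within 1.5 times under DESeq2's size factors, upper-quartile scaling, DESeq2's Wald test, both other filters, the groups compared alone, thinning to the lowest total and removal of ribosomal RNA genes, and the count upward moved to 698 with library totals, which took the share of downregulated among called genes from 72.3% to 82.7% (79.8% with upper-quartile scaling). With adjusted p alone the counts were 5883 and 5998, and with glmTreat against a log2 fold change of 1 they were 536 and 1723. For the difference of responses they were 4160 and 3910, and 353 and 728. For 6 h against 2 h they were 4915 and 5322, and 79 and 578. With each library left out in turn, the counts lay between 911 and 1250 and between 2600 and 2879 for the treated against untreated cells, between 861 and 1049 and between 1464 and 1679 for the difference of responses, and between 358 and 472 and between 1370 and 1805 for 6 h against 2 h. The lowest and highest counts of the first comparison came without untreated replicates 3 and 2.

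A replicate block gave 1068 and 2765 genes. Replicate numbers showed no clear pairing, with deviations from the group means correlated at 0.0607, 0.0148 and 0.0895 for equal numbers of untreated and treated PEO4. With 3 libraries per group these values cannot exclude a pairing. The replicate block gave 923 and 1594 genes for the difference of responses and 393 and 1644 for 6 h against 2 h, and changed no call of a named gene. Limma's voom with a weight per condition, added after the data were seen, weighted untreated PEO4 libraries at 0.532 and treated ones at 1.73, and gave 1043 and 2705 genes. No named gene reversed its direction under these alternatives. For the difference of responses, more genes were lower than higher in PEO4 except with adjusted p alone, where more were higher. Medians of some lists changed sign. That of the endothelial markers was -0.99 and became 1.32 with at least 50 counts in 3 libraries, a filter that leaves fewer genes. With library totals those of the antioxidant, cholesterol, promoter G4, homologous recombination, hypoxia and p53 lists turned from above to below 0, the lowest at -0.09. The YAP and TEAD median was 0.09 with the groups compared alone and 0.08 without untreated replicate 2, against -0.23. Depth limits the genes with few counts in the untreated libraries, which were shallower than the treated ones.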
